A study of Mus musculus with 6 samples.

Results

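The 10 genes described here, Zfp39, Iba57, Guk1, 2610507I01Rik, Mrpl55, Arf1, Wnt3a, Wnt9a, Snap47 and Jmjd4, lie in one stretch of mouse chromosome 11, with other genes between some of them, on the centromeric side of Cops3, the gene at the near end of the duplicated segment. They were chosen by name as neighbours of the segment, with the values of the same duplication comparison in view, so that their differences between genotypes are a description and were not tested. All 18 probe sets of the array annotated to exactly 1 of these symbols are reported, of 45037 probe sets measured. A probe set is a group of short oligonucleotides on the array that together give 1 value, for a transcript or for several transcripts. The genes had 1 probe set (Mrpl55, Wnt3a and Guk1), 2 probe sets (6 genes) or 3 (Arf1).

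RNA of the hippocampus was measured in 6 mice on Affymetrix arrays, with 1 individual named per array. The protocol for target preparation mentions pools of RNA, and the individual of each record was used here. The duplication group was made up of 3 Dp(11)17/+ mice, which have an additional copy of a chromosome 11 segment and serve as a model of Potocki-Lupski syndrome. The wild-type group was made up of 3 +/+ mice. Every mouse was labelled male, aged 11 to 14 weeks and of the C57BL/6-Tyr c-Brd strain. The mice carry individual numbers, and no litter or array batch is given in the sources used here. The first parts of these numbers are all higher in duplication than in wild-type mice. Genotype and any grouping that follows the numbers cannot be told apart. Values are on the log2 scale as deposited, and replicates are numbered within each genotype.

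Several arrays stood apart from their labels or from the rest. In duplication replicate 1, Xist, the RNA of the inactive X chromosome, reached 9.13 (3.06 to 3.69 in the remaining mice), and the Y-linked gene Eif2s3y only 2.48 (5.41 to 6.01 in the remaining mice). In duplication replicate 3, the mean of 13 striatal markers was 7.67 and that of 15 markers of thalamus and habenula 6.72, against 5.45 to 6.01 and 4.90 to 5.18 in wild-type mice, while the mean of 7 markers of the dentate gyrus was 4.78, against 6.60 to 7.02. Duplication replicate 1 had means of 6.76, 5.15 and 5.83 for these lists, and duplication replicate 2 had 5.56, 4.88 and 7.69. The mean of 7 markers of CA1 pyramidal cells, the main output neurons of the hippocampus, was 6.85 to 8.02 in duplication and 7.75 to 8.27 in wild-type mice. The mean of 8 markers of the choroid plexus, the tissue that makes cerebrospinal fluid, was 7.58 in wild-type replicate 1 and 4.43 and 4.46 in the other wild-type mice, and 6.60, 4.63 and 6.80 in duplication replicates 1 to 3. The extraction protocol of the labels names whole brain and organs outside it, while each sample record names hippocampus, which was used here. Values with 1 of these mice left out are given beside some of the results below and not beside all. In whole tissue, fewer cells of a type and less RNA per cell cannot be told apart.

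Mrpl55 encodes a protein of the large subunit of the mitochondrial ribosome, which translates the proteins encoded in mitochondrial DNA. Wnt3a and Wnt9a encode secreted Wnt ligands. Wnt ligands bind Frizzled receptors and LRP coreceptors at the cell surface, and in the canonical pathway this stabilises beta-catenin, which enters the nucleus and acts with TCF and LEF factors on target genes. In the brain, Wnt3a at the cortical margin is known for its role in forming the hippocampus, and canonical Wnt signals act on neurogenesis in the adult dentate gyrus.

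Across the 18 probe sets, 17 had a lower mean and 1 a higher mean in duplication than in wild-type mice, with a median log2 difference of -0.12. The median over all 45037 probe sets was -0.01, and 48.0% of them had a higher mean in duplication mice. In 4 probe sets, 1 each of Mrpl55, 2610507I01Rik, Zfp39 and Snap47, the highest duplication value was below the lowest wild-type value, an arrangement held by 4.61% of all probe sets. In 1 probe set, of Wnt9a, the lowest duplication value was above the highest wild-type value, as in 3.41% of all probe sets. No call by limma is given for these 18; for the whole array, 2.82% of probe sets were under an unadjusted p of 0.05, and 0% passed after adjustment. The groups overlapped in the other 13. Only 6 of the 18 probe sets averaged 6 or more on the log2 scale across all mice. The other 12 were dimmer.

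**Figure D1:**
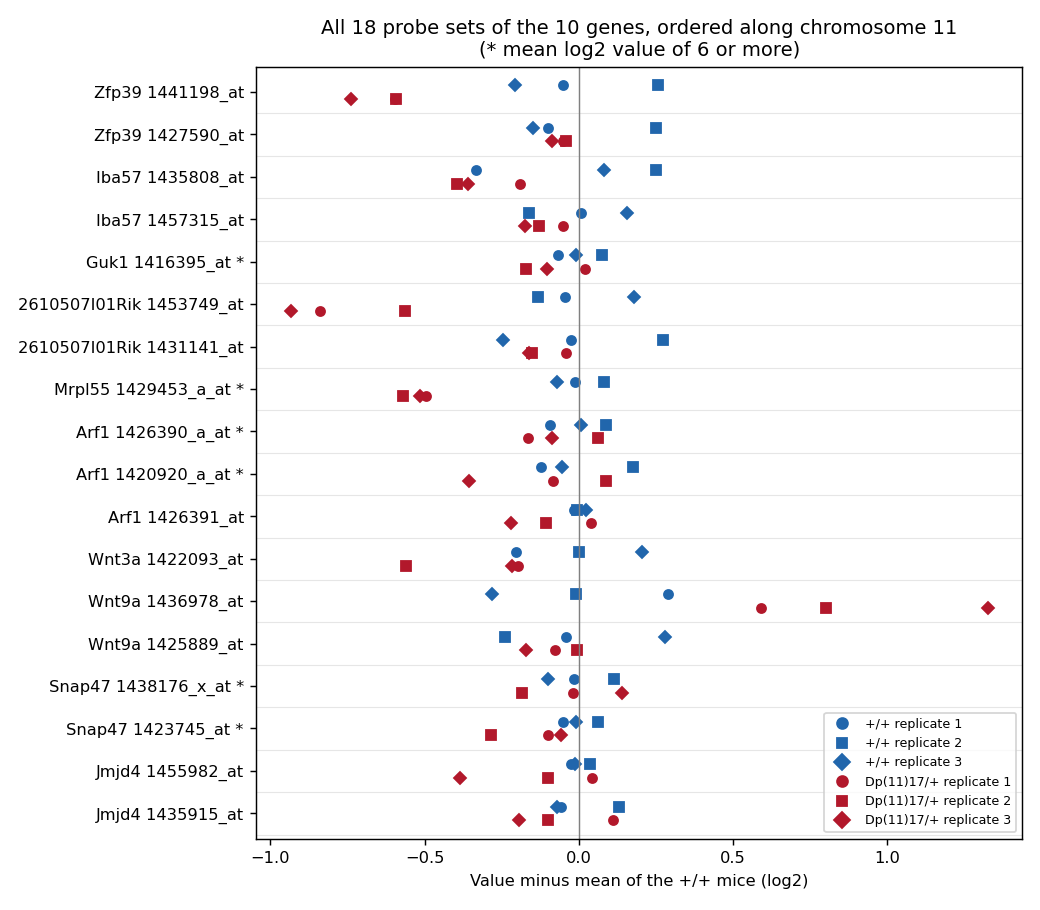
Each row is 1 of the 18 probe sets in gene order along chromosome 11, and each point is 1 mouse, plotted as its log2 value minus the mean of the wild-type mice (horizontal axis). Blue points are +/+ mice, red points are Dp(11)17/+ mice and the marker shape gives the replicate. The red points are clear of the blue ones for Zfp39 1441198_at, 2610507I01Rik 1453749_at and Mrpl55 1429453_a_at to the left and for Wnt9a 1436978_at to the right.

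Mrpl55 was read by 1 probe set, 1429453_a_at. Its log2 values were 6.80, 6.73 and 6.78 in duplication replicates 1 to 3, and 7.28, 7.38 and 7.23 in wild-type replicates 1 to 3. The duplication mice were all lower, lay within a narrow band and were separated from the wild-type mice by a gap of 0.42. The mean was 6.77 ± 0.04 (SD, n = 3) in the duplication group and 7.30 ± 0.08 (SD, n = 3) in the wild-type group, giving a log2 difference of -0.53, or 1.44-fold higher in wild type. This difference was 8.60 times the pooled SD within groups, the largest such ratio among the 18 probe sets. It lay between -0.56 and -0.49 with any 1 mouse left out, and duplication replicate 2 alone lay at -0.57 from the wild-type mean. The 3 duplication mice were alike for Mrpl55. Their striatal, thalamic and dentate marker means differed, while the mean of 15 markers of glia and vessels was 8.26, 8.23 and 8.25. In wild-type mice that mean was 8.14, 8.10 and 8.06. For 8 markers of the meninges, the membranes around the brain, the mean was 5.75, 5.89 and 5.70 in duplication replicates 1 to 3. In wild-type mice the meningeal mean was 6.10, 6.08 and 5.97, so that every duplication mouse was lower. Of these 8 markers, 6 had a lower and 2 a higher mean in duplication mice. The part of tissue make-up in the Mrpl55 difference was not tested.

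The neighbour of Mrpl55 is 2610507I01Rik, a long noncoding RNA gene that is transcribed in the opposite direction. Its brighter probe set, 1453749_at, had log2 values of 4.53, 4.80 and 4.43 in duplication replicates 1 to 3, and 5.32, 5.23 and 5.54 in wild-type replicates 1 to 3. All duplication mice were lower, with a gap of 0.43 between the groups. The mean was 4.59 ± 0.19 (SD, n = 3) in the duplication group and 5.37 ± 0.16 (SD, n = 3) in the wild-type group, giving a log2 difference of -0.78, or 1.72-fold higher in wild type. The difference lay between -0.89 and -0.69 with 1 mouse left out, and was -0.56 for duplication replicate 2 alone. Its dimmer probe set, 1431141_at, had values of 3.72, 3.61 and 3.60 in duplication and of 3.73, 4.03 and 3.52 in wild-type mice. There the groups overlapped, and the log2 difference of -0.12 was smaller than the pooled SD of 0.19.

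The order of the mice within a genotype was not the same for Mrpl55 and 2610507I01Rik. Wild-type replicate 3 had the lowest Mrpl55 value of its group and the highest 2610507I01Rik value. Duplication replicate 2 had the lowest Mrpl55 value and the highest 2610507I01Rik value of its group.

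**Figure D2:**
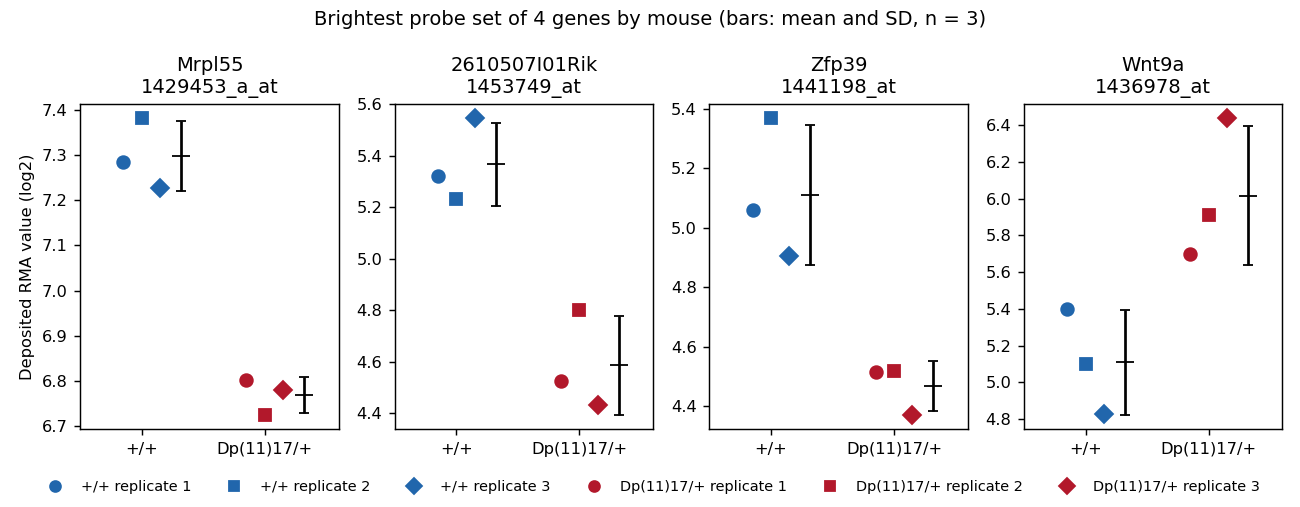
Deposited log2 values (vertical axis, not starting at 0 and different in each panel) of the brightest probe set of Mrpl55, 2610507I01Rik, Zfp39 and Wnt9a in each mouse. Black bars give the mean and SD of 3 mice. Duplication mice lie below wild-type mice in the first 3 panels, with means of 6.77 and 7.30 for Mrpl55, and above them for Wnt9a, with means of 6.02 and 5.11.

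In RefSeq's annotation of the build GRCm38.p6, the start sites of 2610507I01Rik (minus strand) and Mrpl55 (plus strand) are 55 bases apart, head to head. The 250 bases before the start of Mrpl55 are shown because they end at the base before that start and hold the start of 2610507I01Rik, and those before Zfp39 and Wnt9a because these are the other genes whose groups separated widely. Capitals mark matches on either strand to the GC box (GGGCGG) and the CCAAT box (CCAAT), and each window reads towards its gene's start. The windows are chr11:59202236-59202485 on the plus strand for Mrpl55, chr11:58904226-58904475 on the minus strand for Zfp39 and chr11:59306680-59306929 on the plus strand for Wnt9a.
Mrpl55: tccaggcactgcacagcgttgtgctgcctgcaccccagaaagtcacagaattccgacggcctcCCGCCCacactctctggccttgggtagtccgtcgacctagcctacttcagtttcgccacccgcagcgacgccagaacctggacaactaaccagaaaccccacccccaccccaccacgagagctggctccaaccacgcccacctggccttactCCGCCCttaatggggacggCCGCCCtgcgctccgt
Zfp39: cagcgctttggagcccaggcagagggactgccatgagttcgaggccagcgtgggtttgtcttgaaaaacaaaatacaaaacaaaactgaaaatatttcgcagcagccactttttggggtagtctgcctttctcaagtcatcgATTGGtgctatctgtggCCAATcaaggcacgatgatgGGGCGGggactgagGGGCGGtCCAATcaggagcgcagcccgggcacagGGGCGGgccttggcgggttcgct
Wnt9a: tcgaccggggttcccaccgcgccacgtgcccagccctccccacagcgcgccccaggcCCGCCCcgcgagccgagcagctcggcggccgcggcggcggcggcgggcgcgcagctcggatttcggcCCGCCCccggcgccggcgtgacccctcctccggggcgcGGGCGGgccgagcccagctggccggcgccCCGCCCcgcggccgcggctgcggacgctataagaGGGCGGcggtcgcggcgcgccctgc

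The Mrpl55 window holds 3 GC boxes, of which those beginning 16 and 35 bases before its start lie between the divergent starts and so belong to both upstream regions. The Zfp39 window holds 3 GC boxes and 3 CCAAT boxes. The Wnt9a window holds 5 GC boxes and no CCAAT box, and 84.4% of its bases are G or C, against 64.0% for Mrpl55 and 56.0% for Zfp39 and a median of 52.4% over 32851 such windows. A GC box was found in each of the 12 windows listed for the 10 genes, against 32.7% of all windows of this length. These windows are not separate sequence, since those of Arf1 share 145 bases and those of each head-to-head pair overlap, which leaves 9 stretches. There was a CCAAT box in 2 of the 12 windows, against 33.8%. The other letters searched on both strands were TATAAA (0 of 12, against 12.4% of all windows), CCGGAAG of ETS factors (0 of 12, against 6.91%), and CTTTGAT of TCF and LEF factors (0 of 12, against 3.21%). None of these motifs overlapped another in the windows shown. A match is a description of the letters and not a site.

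Snap47 and Jmjd4 form the other head-to-head pair, with start sites 11 bases apart. Snap47 encodes a SNARE protein related to SNAP-25, and Jmjd4 a hydroxylase that acts on the translation termination factor eRF1. The Snap47 probe set 1423745_at had log2 values of 10.40, 10.21 and 10.44 in duplication and 10.45, 10.56 and 10.49 in wild-type mice. All duplication mice were lower, with a log2 difference of -0.15, but the gap between the groups was only 0.01. The brighter 1438176_x_at had 11.48, 11.32 and 11.64 in duplication and 11.48, 11.61 and 11.40 in wild-type mice, which overlapped, with a difference of -0.02. Jmjd4 at 1455982_at had 4.96, 4.82 and 4.54 in duplication and 4.90, 4.96 and 4.91 in wild-type mice, a difference of -0.15 that came mostly from duplication replicate 3 and was -0.03 without it. Its dimmer probe set, 1435915_at, had 3.39, 3.18 and 3.08 in duplication and 3.22, 3.41 and 3.21 in wild-type mice, and overlapped as well.

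Zfp39 encodes a zinc finger protein and is the gene of the set farthest from Cops3, 44 places before it in the gene table. Its brighter probe set, 1441198_at, had log2 values of 4.52, 4.52 and 4.37 in duplication replicates 1 to 3, and 5.06, 5.37 and 4.91 in wild-type replicates 1 to 3. The duplication mice were alike and all lower, with a gap of 0.39. The mean was 4.47 ± 0.08 (SD, n = 3) in the duplication group and 5.11 ± 0.24 (SD, n = 3) in the wild-type group, giving a log2 difference of -0.64, or 1.56-fold higher in wild type. The difference lay between -0.75 and -0.51 with 1 mouse left out, and was -0.59 for duplication replicate 2 alone. The dimmer 1427590_at had 2.78, 2.79 and 2.74 in duplication and 2.73, 3.08 and 2.68 in wild-type mice. These values overlapped near the lowest of the array, 2.14, with a difference of -0.06 that turned to 0.07 without wild-type replicate 2.

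Wnt9a differed in the other direction at its brighter probe set, 1436978_at. Its log2 values were 5.70, 5.91 and 6.44 in duplication replicates 1 to 3, and 5.40, 5.10 and 4.83 in wild-type replicates 1 to 3. All duplication mice were higher, with a gap of 0.30 between the groups. The mean was 6.02 ± 0.38 (SD, n = 3) in the duplication group and 5.11 ± 0.29 (SD, n = 3) in the wild-type group, giving a log2 difference of 0.91, or 1.87-fold. Both groups were widely spread, so that the difference was 2.70 times the pooled SD, less than for Mrpl55, 2610507I01Rik and Zfp39. The dimmer probe set, 1425889_at, had 2.99, 3.07 and 2.90 in duplication and 3.03, 2.83 and 3.35 in wild-type mice. It overlapped, with a difference of -0.09, so the Wnt9a difference was seen at 1 of 2 probe sets. The dimmer one averaged 3.03, below the array medians of 3.74 to 3.79, and a probe set this dim can say little of a difference.

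The Wnt9a value was highest in duplication replicate 3, the mouse with the highest means of striatal and of thalamic markers. Over the whole lists, 13 of 13 striatal markers and 13 of 15 markers of thalamus and habenula had a higher mean in duplication mice. The list means ran from 5.56 to 7.67 in duplication and from 5.45 to 6.01 in wild-type mice for striatum, and from 4.88 to 6.72 and from 4.90 to 5.18 for thalamus. Without duplication replicate 3 the Wnt9a difference was 0.70, and without duplication replicate 1 it was 1.06. Duplication replicate 2, whose striatal and thalamic means lay -0.13 and -0.17 from those of wild type, had a Wnt9a value 0.80 above the wild-type mean. The mean of dentate markers in that mouse lay 0.91 above wild type, and its part in the Wnt9a value was not tested. Of 15 markers of glia and vessels, 13 had a higher mean in duplication mice. The mean of that list was 8.26, 8.23 and 8.25 in duplication replicates 1 to 3 and 8.14, 8.10 and 8.06 in wild-type mice, so that it too was higher in every duplication mouse, and its part was not tested either.

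**Figure D3:**
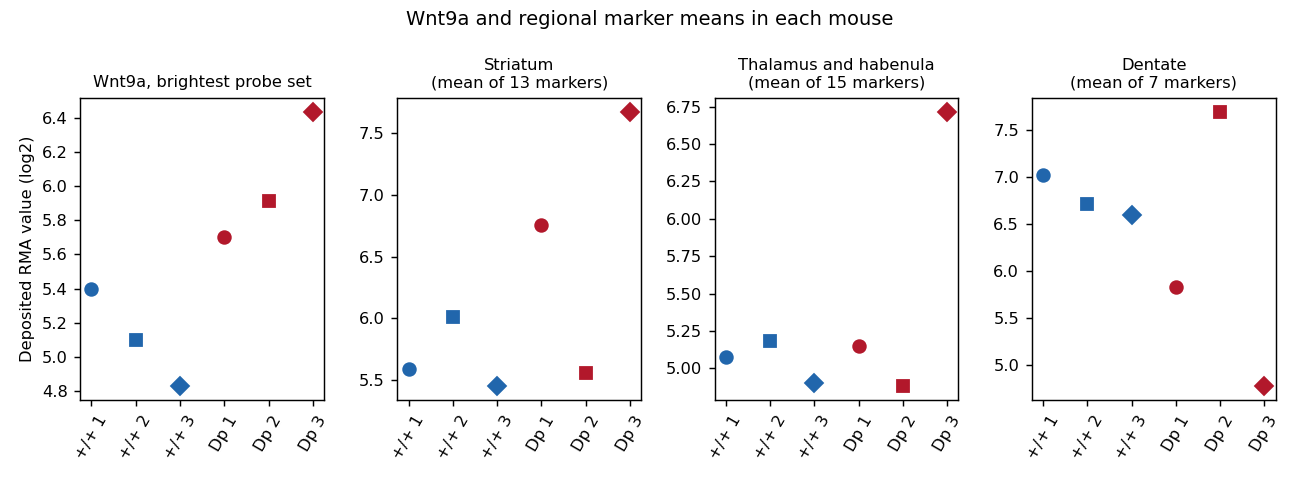
Deposited log2 values (vertical axes, different in each panel) of the brighter Wnt9a probe set and means of the marker lists of striatum (13 genes), thalamus and habenula (15) and dentate gyrus (7), 1 point per mouse. Wnt9a is above all +/+ mice in each Dp mouse (5.70, 5.91 and 6.44). The striatal and thalamic means of Dp replicate 2 (5.56 and 4.88) lie near those of +/+ mice, and its dentate mean (7.69) lies above them. The mean of glia and vessel markers, not plotted, was also higher in every Dp mouse. The part of tissue make-up in the Wnt9a values was not tested.

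Wnt3a, the neighbour of Wnt9a, was dim, with log2 values of 3.47, 3.11 and 3.45 in duplication and 3.46, 3.67 and 3.87 in wild-type mice. The groups overlapped by 1 mouse, duplication replicate 1, and the mean difference was -0.32 with a pooled SD of 0.20. The adjacent ligand genes thus had differences of opposite sign at their brightest probe sets, with no separation of the groups for Wnt3a.

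Guk1, Arf1 and Iba57 lie among these genes, and the groups overlapped in every probe set of all of them. Guk1 encodes guanylate kinase, which makes GDP from GMP, and had log2 values of 8.93, 8.74 and 8.81 in duplication and 8.85, 8.99 and 8.90 in wild-type mice. Its groups overlapped and its difference was -0.08, although the probe set was bright. Arf1 encodes a small GTPase of Golgi transport, and 1426390_a_at had 11.07, 11.30 and 11.15 in duplication and 11.14, 11.32 and 11.24 in wild-type mice, a difference of -0.06. The second bright probe set of Arf1, 1420920_a_at, had 8.98, 9.15 and 8.71 against 8.94, 9.24 and 9.01, and its difference of -0.12 was 0.00 without duplication replicate 3. The third, 1426391_at, was dim, with 3.26, 3.11 and 3.00 against 3.20, 3.21 and 3.24. All 3 probe sets of Arf1 overlapped between the groups.

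Iba57 encodes a mitochondrial protein of iron-sulfur cluster assembly. Its probe set 1435808_at had log2 values of 4.03, 3.83 and 3.87 in duplication and 3.89, 4.48 and 4.31 in wild-type mice, a difference of -0.31 with wild-type replicate 1 among the duplication mice. That difference ran from -0.48 without wild-type replicate 1 to -0.19 without wild-type replicate 2. The probe set 1457315_at had 3.55, 3.47 and 3.42 against 3.60, 3.43 and 3.75, and overlapped too, with a difference of -0.12.

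The other genes of the same stretch are described as well. Since the 10 were chosen with this comparison in view, those left over cannot show how far the differences extend. A count of 0 past adjustment cannot show it either, since 0% of all probe sets passed. From Zfp39 to the gene before Cops3 the gene table lists 44 genes, of which 34 are not among the 10, and 14 of these were measured, each taken by its brightest probe set. By limma with Benjamini-Hochberg adjustment over all probe sets, 0 of the 14 passed (smallest adjusted p = 0.994), and the plain equal-variance statistic called 0. At an unadjusted p under 0.05 the count was also 0 of 14, against 3.17% of the 18194 measured genes. Of all measured genes, 41.7% had a higher mean in duplication mice. Of the 14, 8 were higher and 6 lower, with a median log2 difference of 0.00 where that over all genes was -0.02, and differences between -0.24 and 0.22. With the arrays centred on their medians, 6 were higher and 8 lower. At an unadjusted p under 0.05 the count was 1 without duplication replicate 1 or 2 and 2 without wild-type replicate 1. Over all 25 probe sets of the 14 genes, 1 had an unadjusted p under 0.05 by limma, against 2.82% of all probe sets (adjusted p = 0.994), and this was also the only one whose groups did not overlap. It was the dimmer probe set of H2aw, a histone H2A gene, named after its values were seen, with log2 values of 5.32, 5.43 and 5.29 in duplication and 5.54, 5.89 and 5.78 in wild-type mice, a difference of -0.39. The brighter probe set of H2aw gave -0.24, and its groups overlapped. The measured neighbour of Mrpl55 on the side away from 2610507I01Rik is 2310033P09Rik, named after its values were seen. Its log2 values of 6.41, 6.52 and 6.18 in duplication and 6.47, 6.50 and 6.55 in wild-type mice gave a difference of -0.14. Flcn, the folliculin gene, which is the last measured gene before Cops3, differed by 0.05. Cops3 differed by -0.17, with 8.35, 8.44 and 8.52 in duplication and 8.61, 8.62 and 8.58 in wild-type mice. All duplication mice were thus lower for Cops3, an arrangement held by 4.61% of all probe sets.

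**Figure D4:**
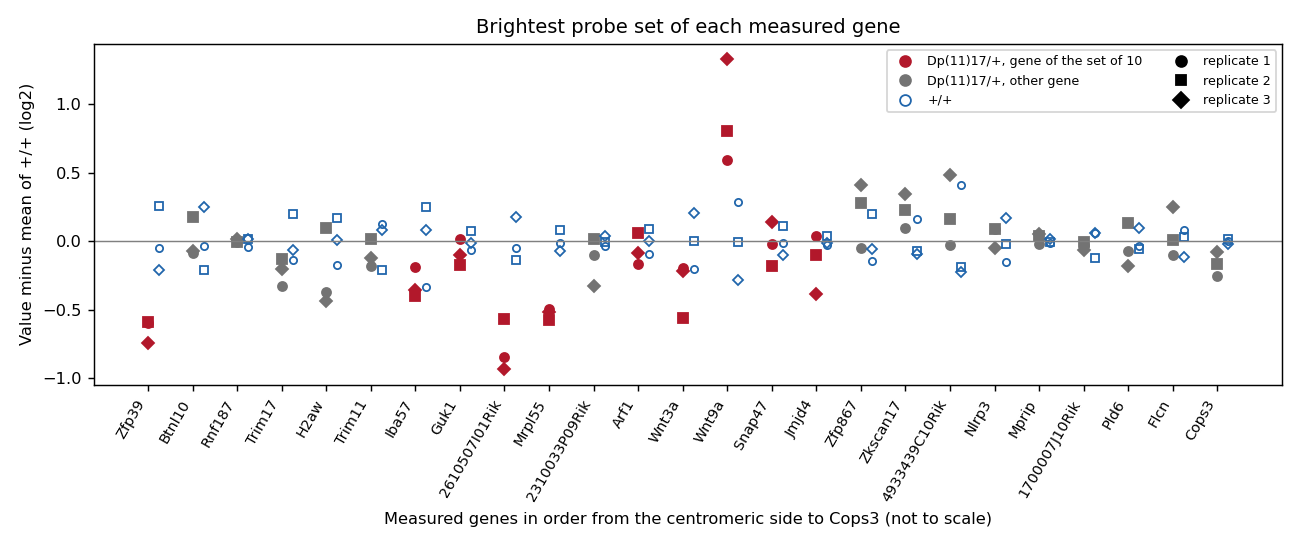
Measured genes in their order along chromosome 11 from Zfp39 to Cops3 (horizontal axis, not to scale), each by its brightest probe set, with the log2 value of each mouse minus the mean of the +/+ mice (vertical axis). Filled red points are Dp mice for the 10 genes, filled grey points are Dp mice for the other genes and open blue points are +/+ mice. Mrpl55, 2610507I01Rik and Zfp39 lie below and Wnt9a above their neighbours. The 14 other genes before Cops3, at these probe sets, have mean differences between -0.24 and 0.22. The 10 genes were chosen with their values in view, so the contrast with the other genes is a description.

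Genes of the Wnt pathway were compared by their roles to describe the setting of Wnt9a and Wnt3a. By limma, 0 of 87 measured genes passed over all probe sets, again with a smallest adjusted p of 0.994, as with the plain equal-variance statistic. At an unadjusted p under 0.05, 1 was higher and 2 were lower, where 1.15% and 2.01% of all genes were. Of the 87, 39 were higher and 48 lower, with a median log2 difference of -0.02, where 41.7% of all genes were higher. The 3 genes were Dkk3, a secreted protein of the Dickkopf family, at -0.74 (SE 0.24), Wnt5a, a ligand, at -0.38 (SE 0.15), and Apc, a scaffold of the complex that degrades beta-catenin, at 0.46 (SE 0.17). The count of 3 was 0 without duplication replicate 1, 1 without duplication replicate 3 or wild-type replicate 3, 6 without wild-type replicate 1 and 10 without duplication replicate 2. Tcf7l2 and Lef1, which also mark thalamus, were not among these 3 genes, so that leaving them out could not change the count.

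Among 17 other Wnt ligands, 5 were higher and 12 lower, with a median of -0.04. Wnt5a had log2 values of 3.66, 4.04 and 3.79 in duplication and 3.94, 4.37 and 4.31 in wild-type mice, which overlapped, and its dimmer probe sets gave 0.09, -0.02 and -0.12. Wnt7a and Wnt10a differed by -0.36 and -0.22. No other ligand had a difference as large as that of Wnt9a, and the highest was 0.34. Wnt9a was chosen with its values in view, so this ranking is a description.

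Of 20 genes of Wnt secretion and secreted modulators, 7 were higher and 13 lower. Dkk3 had log2 values of 7.33, 8.03 and 7.19 in duplication and 8.42, 7.94 and 8.41 in wild-type mice. Its duplication replicate 2 lay within the wild-type range, and its difference was -0.58 without duplication replicate 3. Rspo2, an R-spondin that strengthens Wnt signals, differed by -0.83. Its values were 5.63, 5.28 and 5.12 in duplication and 5.46, 6.09 and 6.98 in wild-type mice, which overlapped, and its dimmer probe set gave 0.04. Sost, an inhibitor that binds LRP coreceptors, differed by -0.21 at a dim probe set with a mean of 3.04, and its other probe set gave -0.01. Among 21 receptors and their regulators, 15 were higher and 6 lower, with a median of 0.05. Znrf3, a ubiquitin ligase that removes Frizzled receptors, was at 0.26 with 6.22, 6.25 and 6.35 in duplication and 6.05, 6.20 and 5.79 in wild-type mice. The receptor gene Fzd1 was at 0.31, and Lgr5, a receptor of R-spondins, at 0.18.

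Of 17 genes of the intracellular relay, 7 were higher and 10 lower, with a median of -0.02. Apc had 10.65, 10.04 and 10.58 in duplication and 9.97, 9.82 and 10.12 in wild-type mice, and its duplication replicate 2 lay only 0.07 above the wild-type mean. Bcl9l and Dvl1 differed by 0.16 each. Tcf7l2, a factor that acts with beta-catenin, had 7.01 in duplication replicate 3 and 3.08 to 3.88 in the other mice, so that its difference was 1.29 with that mouse and 0.20 without it. Of 12 target genes, 5 were higher and 7 lower. Sp5 differed by -0.25, Tnfrsf19 by 0.15 and Nkd1, a feedback inhibitor, by 0.41. The other probe sets of Nkd1 gave 0.05, -0.04 and -0.01. The target genes as a list had a median of -0.02, near that of all genes.

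Genes that work with the other members were compared in the same way. Of 124 measured genes in 5 lists, 0 passed limma over all probe sets, nor did any by the plain equal-variance statistic. At an unadjusted p under 0.05 there were 8, all 8 of them lower, or 8 of 124 where 2.01% of all genes were lower and 3.17% were past that p in either direction. The count of 8 was 2 without wild-type replicate 2, 3 without duplication replicate 3, 4 without wild-type replicate 3, 5 without duplication replicate 1 and 13 without duplication replicate 2. These lists held mostly bright genes. Of the 7104 genes of the array that averaged at least 6 on the log2 scale, 40.9% were higher in duplication mice and the median difference was -0.03.

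For Mrpl55, the other genes of the large subunit of the mitochondrial ribosome give the setting. Of 46 measured, 2 were higher and 44 lower, with a median log2 difference of -0.11, and 43 to 45 were lower under the 3 other scalings of the arrays. At an unadjusted p under 0.05, 5 of the 46 were lower, against 2.01% of all genes. That count was 1 without duplication replicate 3, 1 without wild-type replicate 2 and 2 without duplication replicate 1, and 4 or 5 without any of the others. The smallest p were those of Mrpl17 at -0.24 (8.06, 8.06 and 7.96 in duplication against 8.26, 8.28 and 8.27 in wild-type mice), Mrpl22 at -0.26 and Mrpl1 at -0.19. The differences of the 46 genes ran from -0.26 to 0.03, so that the -0.53 of Mrpl55 lay outside the range of the other subunits. Mrpl55 was chosen with its values in view, so its place outside that range is a description. Most subunits were thus slightly lower and Mrpl55 lower by more, and the median was also -0.11 when duplication replicate 2 alone was set against wild type.

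Among 28 genes of the ARF GTPase cycle, 9 were higher and 19 lower, with Copg1, a coatomer subunit, at -0.21, Iqsec3 at -0.29 and Git2 at 0.18. The second brightest probe sets of Copg1 and Git2 gave -0.01 each. Among 20 genes of SNARE proteins and their ATPase, 6 were higher and 14 lower, with Napg at -0.17, Napb at -0.24 and Nsf at -0.19. Their second brightest probe sets gave -0.29 for Napg, 0.07 for Napb and -0.17 for Nsf. Of 14 genes of mitochondrial iron-sulfur assembly, 2 were higher and 12 lower (10 lower with cyclic loess), with Isca1 at -0.20, Hscb at -0.28 and Fdx1 at -0.15. Of 16 genes of guanine nucleotide synthesis, 5 were higher and 11 lower (9 lower with cyclic loess), with Prps1 at -0.29, Atic at -0.21 and Nme4 at -0.22. The medians of these 4 lists were -0.05, -0.07, -0.08 and -0.04.

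**Figure D5:**
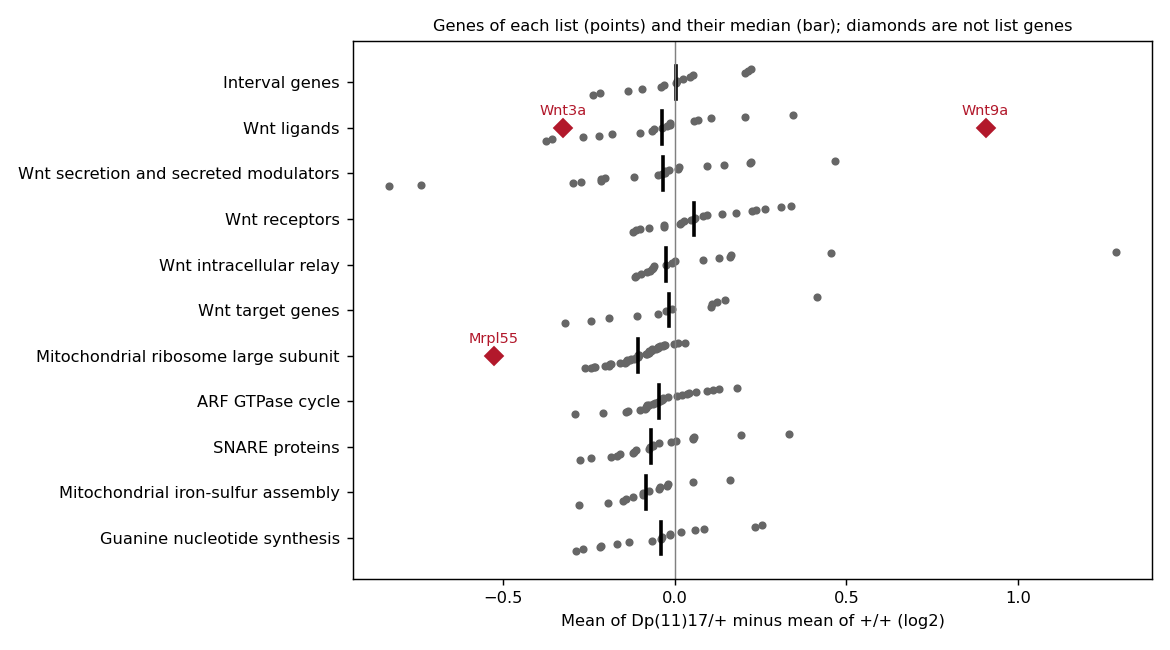
Mean log2 value of duplication mice minus that of wild-type mice (horizontal axis) for each measured gene of the interval, of the Wnt lists and of the partner lists (grey points, 1 list per row), with the median as a black bar. Red diamonds are Mrpl55 (-0.53), Wnt9a (0.91) and Wnt3a (-0.32), which are not list genes. Mrpl55 lies left of all 46 other genes of its list and Wnt9a right of all 17 other ligands, and both were chosen with their values in view.

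The genes whose values over the 6 arrays were most like those of 4 members were found by Pearson's r among 10090 probe sets with 1 symbol that averaged at least 6 on the log2 scale. With 6 arrays, high values of r arise among so many probe sets, and r is a description. Most like Mrpl55 were Dtnbp1 (r = 0.99), Aimp2 (0.98), Ndufa6 (0.97) and Rnf168 (0.97), none of them on chromosome 11. Most like 2610507I01Rik were Maf1 (0.99), Dync1i1 (0.99), Rabggtb (0.98) and Sco2 (0.98). Most like Zfp39 were Mlec, Eif4e, Psmb1 and Mrpl3 (0.99 each). Most like Wnt9a were Vps54 (0.99), also on chromosome 11, Srgn (0.99), Metrn (0.99) and Itih5 (0.98).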

How the data were processed

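The authors deposited log2 values made with RMA per the submitters' processing notes, 1 per probe set and array, with the RMA version and any genome build not given in the sources used here. They lay between 2.14 and 13.09, with array medians of 3.74 to 3.79, and were used as deposited. Precision is limited by the number of arrays. After 64 control probe sets were left out, 45037 were tested, of which 34945 had 1 gene symbol, 932 several and 9160 none in the platform annotation. The members and the lists were chosen with earlier results of these data known. A gene table of GRCm38.p6 gave names, through Entrez identifiers, and gene order. Promoters of all 10 genes were matched by symbol in RefSeq's table. A gene outside the set of 10 was taken by its probe set with the highest mean.

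The genotypes were compared by limma 3.58.1 in R 4.3.3 (lmFit and eBayes, no trend, 7.11 degrees of freedom, two-sided), with Benjamini-Hochberg adjustment over all probe sets and a threshold of 0.05, and the code was tested on simulated data. Nothing in the labels says whether the mice came from separate litters. The rule named every member, up to 6 interval genes with an unadjusted p under 0.05, the 3 genes with the smallest p in each list and the 4 most like genes. Alternatives were 3 scalings, an intensity trend with robust prior, a plain equal-variance statistic, a floor at a mean of 6, the mean over probe sets, each mouse left out and, added after the data were seen, duplication replicate 2 alone and the Wnt lists less Tcf7l2 and Lef1.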

Additional observations from a re-analysis of the deposited data

How the results depend on the processing

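The differences of the 18 probe sets moved by at most 0.02 under the 3 other scalings of the arrays, with 1 change of sign in 54 values, and by at most 0.21 with 1 mouse left out, with 8 changes of sign in 108 values, all in probe sets whose groups overlapped. Averaging the probe sets of a gene gave -0.45 for 2610507I01Rik, -0.35 for Zfp39 and 0.41 for Wnt9a. The number of probe sets past limma over all of them was 0, and 1 with an intensity trend and robust prior. At an unadjusted p under 0.05 it was 1272, 307 with the floor at a mean of 6, and 850 to 2765 with 1 mouse left out. For interval genes that number was 0, 1 with the mean over probe sets and 0 to 2 with 1 mouse left out. For Wnt genes it was 3, 5 with cyclic loess, 1 with the plain equal-variance statistic, 1 with the mean over probe sets and 0 to 10 with 1 mouse left out. For partner genes it was 8, 5 with cyclic loess, 4 with a trend, 14 with the plain statistic, 4 with the floor, 4 with the mean over probe sets and 2 to 13 with 1 mouse left out. The cause of these shifts was not tested, save that the floor leaves fewer genes. The median of interval genes was 0.064 with duplication replicate 2 alone, and that of Wnt genes 0.016 with the floor and -0.0158 to 0.0003 with 1 mouse left out. No paired analysis was possible because the mice of the genotypes share no numbers in the labels. Dim probe sets limit what can be said of 12 of the 18.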
